A study of Mus musculus with 24 samples.

Results

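Proteasome genes were followed in cultured mouse astrocytes given insulin or IGF-1. All genes whose symbol begins with Psm, a letter from a to g and a number were taken, pseudogene symbols excluded, if they averaged at least 1 CPM (counts scaled to the library total) over all libraries. The levels in CPM given below are scaled by the TMM factor of each library as well. Of 32719 genes listed, 50 had such a symbol and 48 met the level. These 48 comprised 7 alpha and 7 beta subunits of the core particle, 3 immunoproteasome subunits, 9 base and 8 lid subunits of the cap, 5 activators, 7 assembly chaperones, the inhibitor Psmf1, and Psmc3ip. Psmc3ip carries the symbol pattern but encodes a meiotic recombination factor, not a proteasome subunit, and is given apart where it matters.

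RNA was measured in 24 libraries of primary cortical astrocytes from newborn pups with a floxed insulin receptor gene, 4 libraries in each of 6 groups. IRKO astrocytes had received adenovirus that carries Cre fused to GFP, and IRflox astrocytes, the floxed controls, adenovirus that carries GFP alone, so genotype and virus cannot be told apart. Cells of each genotype, all labelled as day 14 in vitro, were used 5 days after infection, were starved of serum overnight, and were then exposed for 6 h to insulin or IGF-1 at 100 nM or to vehicle. Poly-A RNA was sequenced without strand information, and nothing in the labels tells if a group's 4 libraries are separate cultures. All p-values therefore measure spread among libraries that could be technical repeats.

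The proteasome degrades proteins tagged with ubiquitin. Alpha rings gate a barrel whose beta rings hold the protease sites, and a cap made of a base of ATPases and a lid binds, unfolds and deubiquitinates the substrate. In glia, part of the beta sites can be supplied by immunoproteasome subunits, which interferons induce, and the transcription factor NRF1 (Nfe2l1) is known to drive the subunit genes together when proteasome activity is low.

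Libraries held 15429688 to 19010986 gene counts, and all 48 genes were among the 15599 abundant enough to be tested. The targeted gene, Insr, had 26.6 to 43.6 CPM in the IRKO libraries and 46.7 to 66.8 CPM in the IRflox libraries, and was lower in IRKO astrocytes under each treatment (edgeR adjusted p at most 3e-10). Insr reads thus remained in IRKO libraries, and these counts do not tell how much receptor protein was left. The 9 astrocyte markers summed to 4295 to 4417 CPM with insulin, 4089 to 4105 CPM with IGF-1 and 4288 to 4531 CPM with vehicle in IRKO libraries, and to 4113 to 4335, 3756 to 3896 and 4067 to 4321 CPM in IRflox libraries, so that IGF-1 libraries lay below vehicle without overlap in both genotypes. With IGF-1 2 of the 9 rose and 4 fell in IRKO astrocytes, and 2 rose and 5 fell in IRflox astrocytes. With insulin 4 rose and 3 fell in IRKO, and 4 rose and 2 fell in IRflox astrocytes. Of all tested genes 26.9% rose and 25.1% fell with IGF-1 in IRKO, and 26.4% and 24.4% in IRflox astrocytes. With insulin the shares were 24.7% and 21.7% in IRKO, and 24.3% and 21.4% in IRflox astrocytes. The part of the marker shifts in the proteasome gene results was not tested. Microglia markers were also present. In bulk RNA, fewer cells of a type and less RNA per cell cannot be told apart.

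Both ligands raised most proteasome genes in both genotypes, by small and similar amounts. In IRKO astrocytes 41 of 48 genes rose with insulin and 37 with IGF-1, where 24.7% and 26.9% of all tested genes rose and 21.7% and 25.1% fell. In IRflox astrocytes 40 rose with insulin and 38 with IGF-1, where 24.3% and 26.4% of all tested genes rose and 21.4% and 24.4% fell. None of the 48 fell in any of these comparisons (edgeR quasi-likelihood test, Benjamini-Hochberg adjusted p under 0.05 over all tested genes). The median log2 change over the 48 was 0.23 with insulin and 0.28 with IGF-1 in IRKO astrocytes, and 0.24 and 0.27 in IRflox astrocytes, against medians over all tested genes of 0.009, -0.001, 0.001 and -0.004. The ligands share their vehicle libraries within a genotype, so their results are given side by side and not as independent of each other.

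In all, 37 of the 48 rose in all 4 ligand comparisons. The share of all tested genes that rose in all 4 was not computed, so this count has no background beside it. Psmd4 and Psme1 passed the test with insulin in both genotypes and not with IGF-1, and Psmd10 passed with both ligands in IRflox astrocytes alone. Psmb9 and Psmd13 passed with insulin in IRKO astrocytes alone. The genes that passed in none were the lid gene Psmd8, the assembly chaperones Psmd9 and Psmg2, the activators Psme2b and Psme4, and the inhibitor Psmf1. Whether a gene passed in some of these comparisons and not in others is not a test of their difference, which was tested separately.

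**Figure D1:**
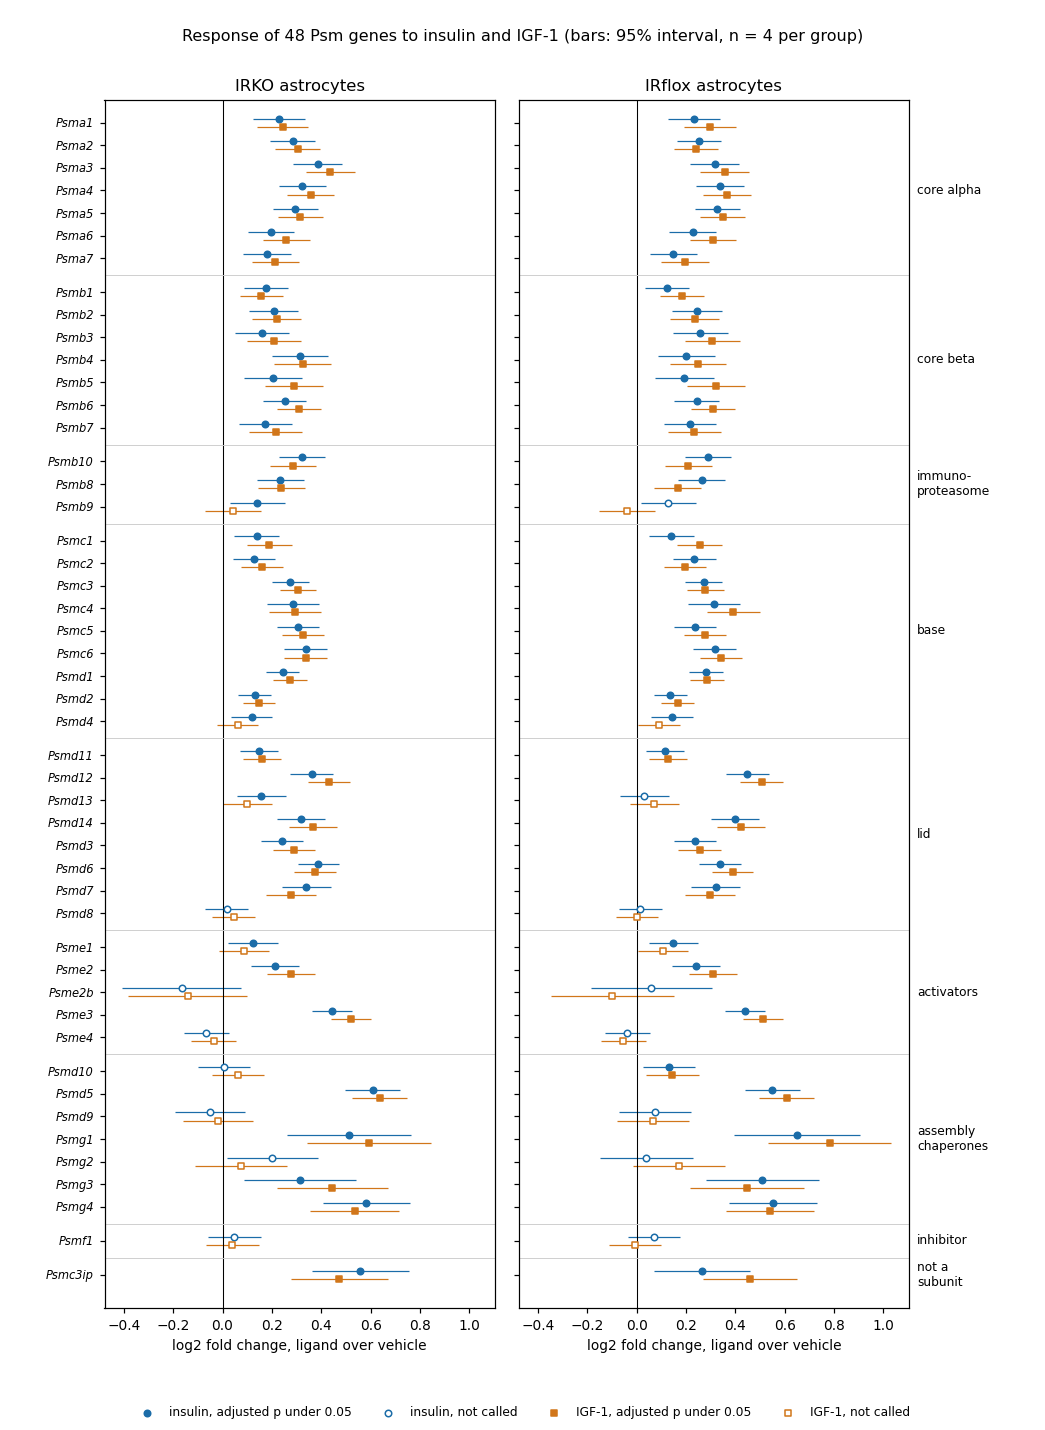
Log2 fold change of each of the 48 genes (rows, by role) with insulin (circles) or IGF-1 (squares) over vehicle in IRKO (left) and IRflox astrocytes (right), with 95% intervals; filled symbols passed the test. Every core alpha and core beta gene lies above 0 in both panels, while Psmd8, Psme4 and Psmf1 lie close to 0.

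The summed level of all 48 genes was 5846 ± 104 CPM with insulin, 5922 ± 70.6 CPM with IGF-1 and 5000.2 ± 155 CPM with vehicle in IRKO astrocytes (SD, n = 4 libraries each). In IRflox astrocytes the sums were 5867 ± 135, 5931 ± 183 and 5008 ± 218 CPM. The lowest treated library stood at 5709 CPM in IRKO and 5711 CPM in IRflox astrocytes, above the highest vehicle library of its genotype, at 5174 and 5319 CPM. The ratio to vehicle was thus 1.17 with insulin and 1.18 with IGF-1 in either genotype. Among the 7 role classes summed, the ratio was largest for the assembly chaperones, at 1.25 and 1.27 in IRKO astrocytes and 1.28 and 1.31 in IRflox astrocytes. Much of that rise came from Psmd5, the member of the class with the highest level. In IRKO astrocytes Psmd5 held 44.3 to 54.96 CPM with vehicle and 67.4 to 78.8 CPM with insulin. The mean class sums there were 154.9 and 193.1 CPM, and the class ratio without Psmd5 was not computed. Among these 7 it was smallest for the activators with insulin and IGF-1 in IRKO astrocytes, at 1.125 and 1.147, and with insulin in IRflox astrocytes, at 1.145. With IGF-1 in IRflox astrocytes the smallest of the 7 was that of the immunoproteasome genes, at 1.115. The immunoproteasome sum under IGF-1 in IRflox astrocytes, 570.8 to 649.0 CPM, overlapped the vehicle sum of 510.6 to 604.6 CPM, whereas the sums of the other 6 roles drawn separated treated from vehicle libraries in both genotypes.

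**Figure D2:**
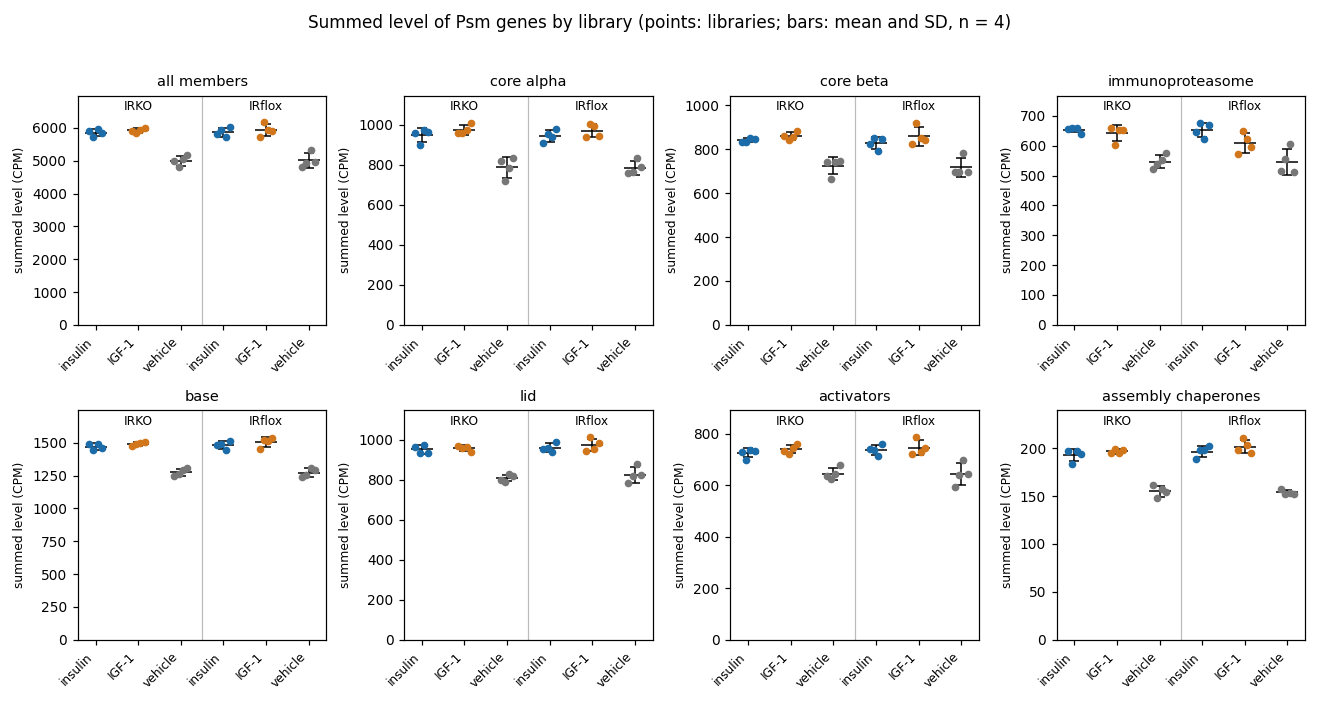
Summed level in CPM of all 48 genes and of 7 role classes (panels) in each library (points), with mean and SD (bars, n = 4), for insulin, IGF-1 and vehicle in IRKO (left of each panel) and IRflox astrocytes (right). Vehicle libraries lie lowest in each panel except immunoproteasome, where vehicle and IGF-1 overlap in IRflox astrocytes.

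The genes differed widely in level. Per kilobase of the exons of protein-coding transcripts (GENCODE M21 basic set) and averaged over the 24 libraries, Psme2 and Psme1 stood highest at 237.4 and 217 CPM per kb, followed by Psmb10, Psma6, Psmb8 and Psmb6 at 189 to 153 CPM per kb. The order depends on that length: per kilobase of all annotated exons Psma6 stood highest at 160.5 CPM per kb, followed by Psmb10 at 145.7, Psme2 at 131 and Psmb5 at 111.1 CPM per kb. By the exons of protein-coding transcripts the class median was 81.1 CPM per kb for core alpha, 111.1 for core beta, 171 for immunoproteasome, 79.5 for base, 55.2 for lid, 44.9 for activator and 14.2 for assembly chaperone genes. The lowest were Psmd9 at 7.92, Psmc3ip at 8.00 and Psmg1 at 9.32 CPM per kb. Across the 48 genes the log2 response was weakly related to log2 level, with Pearson's r of -0.12 (insulin) and -0.081 (IGF-1) in IRKO astrocytes and -0.20 and -0.21 in IRflox astrocytes, a description over genes measured in the same libraries. Without regard to length, Psmg1 (9.74 CPM) and Psmc3ip (10.3 CPM) had the lowest means of the 48, well above the level rule of 1 CPM. Outside the rule lay Psma8, the testis alpha subunit (0.239 CPM, 0 to 12 counts), and Psmb11, the thymus beta subunit (0.116 CPM, 0 to 7 counts).

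Promoter sequence was set beside these responses, since antioxidant response elements are the sites through which NRF1 is known to act on proteasome genes. RefSeq windows of 300 bases (250 before and 50 after the start, GRCm38.p6) were on hand for 41 of the 48 genes. The element's core, TGACNNNGC on either strand, was found in 6 of the 41 (14.6%), against 14% of the windows of 27025 genes. A looser form that contains it, TGANNNNGC, was found in 56.1% against 45%, and the CCAAT box in 34.1% against 41.1%. Of the 6 genes with the core, Psmd12, Psmc6, Psmb5 and Psmb6 rose in all 4 ligand comparisons, and Psmd9 and Psme4 in none. The match lay 247 bases before the start in Psmd12, 227 in Psmc6, 47 in Psmb5, 9 in Psmb6 and 31 in Psmd9, and that of Psme4 crossed the start. The RefSeq start of Psmd9 lies inside the span of the gene in GENCODE M21 (123169413 to 123250131) and not at the beginning of it. For 40 of the 44 windows of these genes, a run of bases after the start was found in a GENCODE M21 transcript of the gene. Stretches of 60 bases around 5 of the matches are shown to set genes that rose beside 1 that did not, 5′ to 3′ on the gene's strand, with the match in capitals (reverse complement of the core in Psmd12 and Psmc6).
Psmd12, chr11:107479278-107479337, plus strand: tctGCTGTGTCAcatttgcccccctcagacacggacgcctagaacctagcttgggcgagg
Psmc6, chr14:45329574-45329633, plus strand: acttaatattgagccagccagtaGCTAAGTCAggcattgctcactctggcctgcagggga
Psmb5, chr14:54618009-54618068, minus strand: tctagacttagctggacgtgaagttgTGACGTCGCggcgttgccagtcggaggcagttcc
Psmb6, chr11:70525297-70525356, plus strand: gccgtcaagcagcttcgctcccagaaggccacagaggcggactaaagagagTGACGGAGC
Psmd9, chr5:123228130-123228189, plus strand: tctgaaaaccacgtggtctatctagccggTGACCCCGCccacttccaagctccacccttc

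The core was in 4 of the 34 windows of genes that rose with insulin in IRflox astrocytes and in 2 of the 7 of genes that did not pass. A match describes the letters in this window and is not evidence of binding.

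The genes of the alpha rings, which gate entry to the core, all rose in RNA: 7 of 7 genes passed in each ligand comparison, with median log2 changes of 0.28 (insulin) and 0.30 (IGF-1) in IRKO and 0.25 and 0.31 in IRflox astrocytes. Psma5 (chromosome 3, 108256926 to 108279974, plus strand), the alpha gene with the lowest p for insulin in IRflox astrocytes, had 108.3, 108.8, 107.05 and 101.7 CPM in IRKO astrocytes given insulin, 107.04, 104.9, 107.1 and 112.4 CPM in those given IGF-1 and 89.3, 78.1, 87.1 and 92.6 CPM in those given vehicle. In IRflox astrocytes Psma5 had 100.7, 109.7, 107.6 and 111.03 CPM with insulin, 107.9, 107.3, 110.5 and 109.9 CPM with IGF-1 and 84.5, 81.1, 91.8 and 84.2 CPM with vehicle. Every treated library exceeded every vehicle library of its genotype, and the treated groups overlapped each other. Psma5 rose by 0.30 (log2) with insulin and 0.31 with IGF-1 in IRKO astrocytes, and by 0.33 and 0.35 in IRflox astrocytes (SE 0.045 each, edgeR adjusted p at most 6.76e-07).

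Psma7, the alpha gene with the highest p in that comparison, had 107.9, 108.5, 119.1 and 115.4 CPM in IRKO astrocytes given insulin, 113.4, 111.2, 115.1 and 121.9 CPM in those given IGF-1 and 97.98, 97.2, 96.9 and 106.1 CPM in those given vehicle. In IRflox astrocytes Psma7 had 104.7, 112.98, 105.4 and 108.8 CPM with insulin, 104.7, 116.7, 111.8 and 112.8 CPM with IGF-1 and 90.2, 90.9, 103.7 and 104.3 CPM with vehicle. Treated and vehicle libraries did not overlap in either genotype, though in IRflox astrocytes the lowest insulin library (104.7 CPM) stood next to the highest vehicle library (104.3 CPM). The log2 changes of Psma7 were 0.18 (SE 0.048) and 0.21 (SE 0.048) in IRKO astrocytes and 0.15 (SE 0.048) and 0.20 (SE 0.048) in IRflox astrocytes. The insulin call of Psma7 in IRflox astrocytes (edgeR adjusted p = 0.00978) was lost without IRflox vehicle replicate 1 (0.0956), IRflox vehicle replicate 2 (0.0621) or IRflox insulin replicate 2 (0.0636), with the adjusted p in brackets.

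All 7 constitutive beta genes rose in each ligand comparison, with medians of 0.21 and 0.22 in IRKO and 0.22 and 0.25 in IRflox astrocytes. Psmb4, which has no protease site, rose by 0.31 (log2) with insulin and 0.32 with IGF-1 in IRKO astrocytes, and by 0.20 and 0.25 in IRflox astrocytes. Psmb3, likewise without one, rose by 0.16 (log2) with insulin and 0.21 with IGF-1 in IRKO astrocytes, and by 0.26 and 0.31 in IRflox astrocytes, and its insulin call in IRKO astrocytes (edgeR adjusted p = 0.0128) was lost without IRKO vehicle replicate 2 (0.152), IRKO insulin replicate 3 (0.0674) or IRKO insulin replicate 4 (0.0562). The 3 that carry the protease sites are Psmb5 (chymotrypsin-like), Psmb6 (caspase-like) and Psmb7 (trypsin-like). Psmb6 (chromosome 11, 70525367 to 70527858, plus strand), the beta gene with the lowest p for insulin in IRflox astrocytes, had 128.1, 133.2, 127.7 and 126.9 CPM in IRKO astrocytes given insulin, 136.6, 123.5, 137.1 and 139.4 CPM in those given IGF-1 and 106.3, 104.4, 113.1 and 109.8 CPM in those given vehicle. In IRflox astrocytes Psmb6 had 120.3, 128.7, 119.9 and 128.9 CPM with insulin, 124.01, 143.7, 127.3 and 126.9 CPM with IGF-1 and 102.6, 104.8, 109.5 and 103.95 CPM with vehicle. Its treated and vehicle libraries were fully apart in both genotypes, with log2 changes of 0.25 (SE 0.044) and 0.31 (SE 0.044) in IRKO and 0.24 (SE 0.044) and 0.31 (SE 0.044) in IRflox astrocytes (edgeR adjusted p at most 1.68e-05).

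Psmb5 (chromosome 14, 54614119 to 54618022, minus strand) had 102.6, 98.5, 105.5 and 106.9 CPM in IRKO astrocytes given insulin, 112.1, 103.1, 114.2 and 109.4 CPM in those given IGF-1 and 88.8, 80.3, 90.9 and 98.9 CPM in those given vehicle. In IRflox astrocytes Psmb5 had 102.4, 101.99, 88.9 and 106.1 CPM with insulin, 101.4, 117.2, 101.1 and 117.3 CPM with IGF-1 and 84.1, 83.8, 97.9 and 83.4 CPM with vehicle. IGF-1 libraries lay above all vehicle libraries in both genotypes, while insulin libraries overlapped them in both. The log2 changes of Psmb5 were 0.20 (SE 0.059) and 0.29 (SE 0.058) in IRKO and 0.19 (SE 0.059) and 0.32 (SE 0.059) in IRflox astrocytes, and the insulin call in IRflox astrocytes (edgeR adjusted p = 0.00691) was lost without IRflox insulin replicate 4 (0.0526). Psmb5 shares 12.1% of its exon length with the microRNA gene Mir686 on the same strand.

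Psmb7 (chromosome 2, 38588036 to 38644087, minus strand) had 139.3, 146.2, 127.6 and 143.8 CPM in IRKO astrocytes given insulin, 146.5, 131.5, 140.6 and 154.3 CPM in those given IGF-1 and 131.6, 112.8, 119.6 and 129.7 CPM in those given vehicle. In IRflox astrocytes Psmb7 had 142.2, 145.6, 124.8 and 138.9 CPM with insulin, 132.6, 144.2, 133.7 and 148.1 CPM with IGF-1 and 116.7, 114.8, 126.6 and 116.4 CPM with vehicle. Only IGF-1 in IRflox astrocytes separated its libraries from vehicle. The log2 changes of Psmb7 were 0.17 (SE 0.053) and 0.22 (SE 0.053) in IRKO and 0.22 (SE 0.053) and 0.23 (SE 0.053) in IRflox astrocytes, each with edgeR adjusted p of at most 0.006, and the insulin call in IRKO astrocytes was lost without IRKO vehicle replicate 2 (0.0579). Psmb7 shares 11.8% of its exon length with the opposite-strand gene Nek6, whose reads cannot be told apart there. Over all libraries Nek6 averaged 443.9 CPM and Psmb7 133.6 CPM by library total.

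Psmb1, a beta subunit without a protease site, had the highest p of the class for insulin in IRflox astrocytes. Its levels were 143.7, 140.9, 154.5 and 150.1 CPM in IRKO astrocytes given insulin, 142.4, 150.5, 143.7 and 145.3 CPM in those given IGF-1 and 136.8, 123.3, 132.1 and 129.7 CPM in those given vehicle. In IRflox astrocytes Psmb1 had 139.8, 151.4, 137.4 and 148.01 CPM with insulin, 150.2, 156.01, 148.6 and 146.3 CPM with IGF-1 and 129.2, 124.2, 145.8 and 129.97 CPM with vehicle. Insulin and vehicle overlapped in IRflox astrocytes through a single vehicle library at 145.8 CPM, and the other comparisons did not overlap. The log2 changes of Psmb1 were 0.18 (SE 0.044) and 0.16 (SE 0.044) in IRKO and 0.12 (SE 0.044) and 0.18 (SE 0.044) in IRflox astrocytes, and the insulin call in IRflox astrocytes (edgeR adjusted p = 0.0197) was lost without IRflox vehicle replicate 1 (0.0883), IRflox vehicle replicate 2 (0.111), IRflox vehicle replicate 4 (0.0799), IRflox insulin replicate 2 (0.124) or IRflox insulin replicate 4 (0.0943).

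The immunoproteasome genes Psmb8, Psmb9 and Psmb10 encode the subunits that take the places of Psmb5, Psmb6 and Psmb7. Of these, Psmb8 and Psmb10 rose in each ligand comparison, and Psmb9 passed with insulin in IRKO astrocytes alone. Psmb10 (chromosome 8, 105935735 to 105938444, minus strand) had 265.9, 269.1, 284.6 and 273.8 CPM in IRKO astrocytes given insulin, 270.3, 256.2, 267.4 and 270.6 CPM in those given IGF-1 and 206.1, 215.9, 218.1 and 234.3 CPM in those given vehicle. In IRflox astrocytes Psmb10 had 257.7, 270.4, 253.8 and 277.5 CPM with insulin, 237.1, 267.7, 257.99 and 239.4 CPM with IGF-1 and 206.4, 218.2, 241.2 and 200.9 CPM with vehicle. All treated libraries exceeded vehicle except under IGF-1 in IRflox astrocytes, where 2 of the 4 lay below the highest vehicle library. Psmb10 rose by 0.32 (log2) with insulin and 0.28 with IGF-1 in IRKO astrocytes, and by 0.29 and 0.21 in IRflox astrocytes (SE 0.046 each, edgeR adjusted p at most 0.000208).

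Psmb8 (chromosome 17, 34197721 to 34201454, plus strand) had 297.1, 298.9, 296.6 and 282.2 CPM in IRKO astrocytes given insulin, 309.6, 271.8, 297.6 and 299.6 CPM in those given IGF-1 and 243.5, 243.3, 252.6 and 260.3 CPM in those given vehicle. In IRflox astrocytes Psmb8 had 297.9, 312.04, 289.04 and 307.9 CPM with insulin, 263.1, 301.5, 284.1 and 279.4 CPM with IGF-1 and 230.99, 256.4, 281.05 and 236.03 CPM with vehicle. The same pattern of overlap held, with IGF-1 and vehicle libraries mixed in IRflox astrocytes and all other treated libraries above vehicle. The log2 changes of Psmb8 were 0.23 (SE 0.047) and 0.24 (SE 0.047) in IRKO and 0.26 (SE 0.047) and 0.17 (SE 0.047) in IRflox astrocytes (edgeR adjusted p at most 0.00285).

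Psmb9 (chromosome 17, 34181987 to 34187764, minus strand) had 91.6, 91.03, 79.6 and 84.3 CPM in IRKO astrocytes given insulin, 78.8, 73.3, 88.04 and 83.4 CPM in those given IGF-1 and 73.02, 78.5, 80.1 and 82.6 CPM in those given vehicle. In IRflox astrocytes Psmb9 had 91.04, 92.3, 79.2 and 83.2 CPM with insulin, 70.6, 79.8, 79.4 and 77.9 CPM with IGF-1 and 79.1, 81.1, 82.3 and 73.7 CPM with vehicle. Its treated and vehicle libraries overlapped in every comparison. The log2 differences were 0.14 (SE 0.055) and 0.042 (SE 0.056) in IRKO and 0.13 (SE 0.056) and -0.039 (SE 0.056) in IRflox astrocytes, with edgeR adjusted p of 0.0335, 0.56, 0.0566 and 0.596. The insulin call in IRKO astrocytes was lost without IRKO vehicle replicate 1 (0.19), IRKO vehicle replicate 2 (0.0662), IRKO vehicle replicate 3 (0.0506), IRKO insulin replicate 1 (0.144) or IRKO insulin replicate 2 (0.119), and in IRflox astrocytes insulin passed without IRflox vehicle replicate 3 (0.0442) or IRflox insulin replicate 3 (0.0263). The IRKO call was also lost with DESeq2 (adjusted p = 0.0641) and with scaling by library size alone (edgeR adjusted p = 0.051), and insulin in IRflox astrocytes passed without the filter on low counts (0.0375). Psmb9 shares 5.79% of its exon length with Tap1 on the opposite strand, which averaged 286.1 CPM against 81.4 CPM for Psmb9 by library total.

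As a ratio per kilobase (exons of protein-coding transcripts), Psmb9 to Psmb6 was 0.396 ± 0.023 with insulin, 0.356 ± 0.017 with IGF-1 and 0.428 ± 0.019 with vehicle in IRKO astrocytes (SD, n = 4). In IRflox astrocytes the ratio was 0.410 ± 0.031, 0.349 ± 0.020 and 0.444 ± 0.018. The IGF-1 libraries lay below all vehicle libraries in both genotypes, at most 0.379 against at least 0.405 in IRKO and at most 0.368 against at least 0.419 in IRflox astrocytes, while insulin overlapped vehicle. For Psmb8 to Psmb5 and Psmb10 to Psmb7 the size of the ratio depends on the exon length taken. Over the 6 group means Psmb8 to Psmb5 ran from 1.43 to 1.67 by the exons of protein-coding transcripts and from 0.689 to 0.806 by all annotated exons, so that it turned from above to below 1, and Psmb10 to Psmb7 ran from 1.57 to 1.74 and from 3.57 to 3.96. These 2 ratios overlapped between treated and vehicle libraries in both genotypes, and no ratio was tested.

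**Figure D3:**
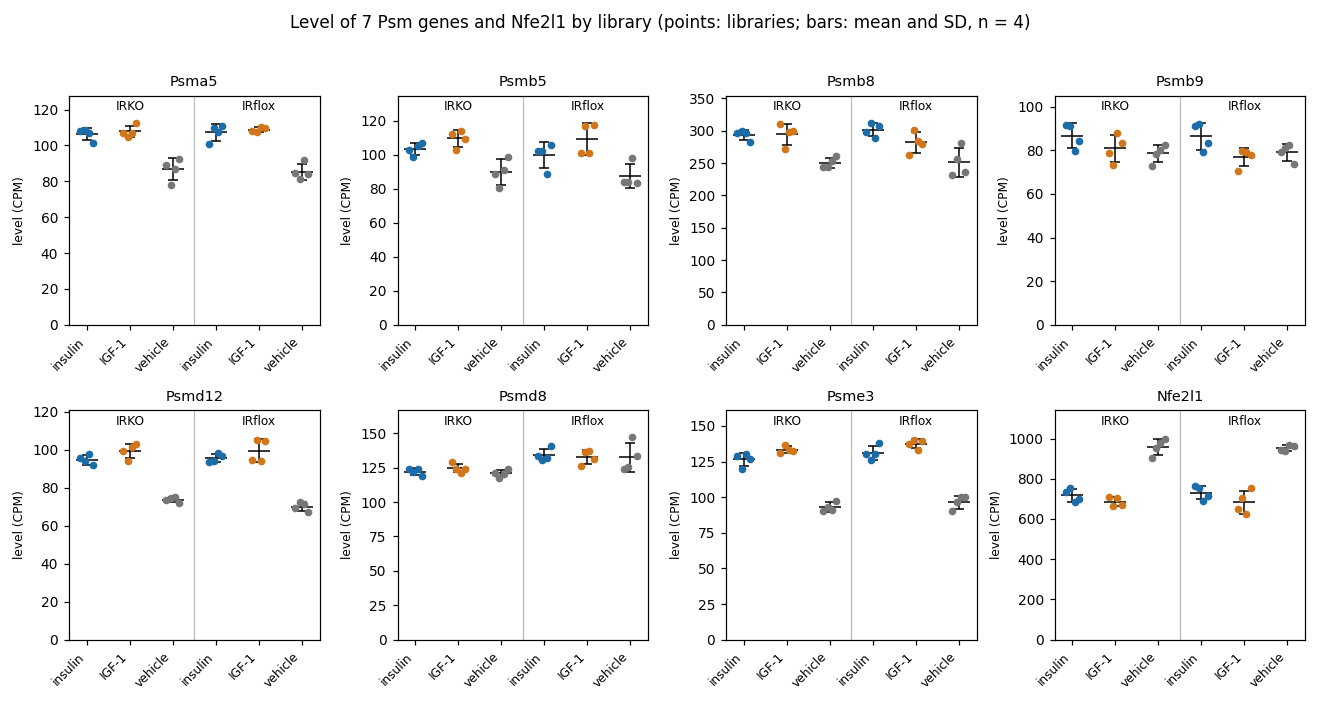
Level in CPM of 7 Psm genes and of Nfe2l1 in each library (points), with mean and SD (bars, n = 4), for insulin, IGF-1 and vehicle in IRKO (left of each panel) and IRflox astrocytes (right). Psmd12 and Psme3 separate treated from vehicle libraries in both genotypes, Psmb9 does not, Psmd8 stands lower in IRKO than in IRflox astrocytes under vehicle and insulin, and Nfe2l1 falls with both ligands.

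In the base, whose ATPases unfold substrates, all 9 genes rose with insulin in both genotypes, and 8 of 9 rose with IGF-1 in both. The log2 changes ran from 0.12 to 0.34 with insulin and 0.06 to 0.34 with IGF-1 in IRKO astrocytes, and from 0.14 to 0.32 and 0.09 to 0.39 in IRflox astrocytes. Psmd1 (chromosome 1, 86064387 to 86139151, plus strand), a large scaffold subunit, had 258.4, 249.7, 262.7 and 257.6 CPM in IRKO astrocytes given insulin, 257.6, 266.7, 262.2 and 263.6 CPM in those given IGF-1 and 216.9, 223.6, 218.7 and 209.8 CPM in those given vehicle. In IRflox astrocytes Psmd1 had 264.6, 267.7, 254.5 and 269.99 CPM with insulin, 257.8, 270.1, 264.8 and 267.4 CPM with IGF-1 and 216.4, 211.6, 217.9 and 223.5 CPM with vehicle. The groups were far apart, with no treated library below 249.7 CPM and no vehicle library above 223.6 CPM. Psmd1 rose by 0.24 (log2) with insulin and 0.27 with IGF-1 in IRKO astrocytes, and by 0.28 and 0.29 in IRflox astrocytes (SE 0.034 each, edgeR adjusted p at most 8.7e-08).

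Psmc1, an ATPase gene, had the highest p of the base for insulin in IRflox astrocytes. Its levels were 151.7, 144.3, 143.01 and 148.1 CPM in IRKO astrocytes given insulin, 146.2, 144.5, 155.5 and 162.01 CPM in those given IGF-1 and 130.2, 131.8, 129.4 and 142.2 CPM in those given vehicle. In IRflox astrocytes Psmc1 had 149.2, 144.6, 137.1 and 151.4 CPM with insulin, 148.1, 160.1, 151.7 and 170.99 CPM with IGF-1 and 124.4, 132.2, 135.5 and 136.4 CPM with vehicle. Treated and vehicle libraries did not overlap, though the lowest insulin library in IRflox astrocytes (137.1 CPM) stood next to the highest vehicle library (136.4 CPM). The log2 changes of Psmc1 were 0.14 (SE 0.045) and 0.19 (SE 0.045) in IRKO and 0.14 (SE 0.045) and 0.26 (SE 0.045) in IRflox astrocytes. The insulin call was lost in IRKO astrocytes without IRKO vehicle replicate 1 (0.0541), IRKO vehicle replicate 3 (0.0514) or IRKO insulin replicate 1 (0.052), and in IRflox astrocytes without IRflox vehicle replicate 1 (0.0845), IRflox insulin replicate 1 (0.0709) or IRflox insulin replicate 4 (0.0672) (edgeR adjusted p in brackets).

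Among the other ATPase genes Psmc6 rose by 0.34 (log2) with insulin and 0.34 with IGF-1 in IRKO astrocytes, and by 0.32 and 0.34 in IRflox astrocytes. Psmc4 rose by 0.28 (log2) with insulin and 0.29 with IGF-1 in IRKO astrocytes, and by 0.31 and 0.39 in IRflox astrocytes. The base member that missed the test with IGF-1 was Psmd4, a ubiquitin receptor, with log2 differences of 0.12 (SE 0.041) and 0.062 (SE 0.042) in IRKO and 0.14 (SE 0.042) and 0.09 (SE 0.042) in IRflox astrocytes (edgeR adjusted p 0.0172, 0.22, 0.00447 and 0.0691). Its insulin call in IRKO astrocytes was lost without IRKO vehicle replicate 1 (0.18), IRKO insulin replicate 1 (0.0642) or IRKO insulin replicate 3 (0.0971), and IGF-1 in IRflox astrocytes passed without IRflox vehicle replicate 3 (0.0305). Without the filter on low counts the insulin calls in IRKO astrocytes of Psmd4 (edgeR adjusted p = 0.0809) and of Psmc2 (0.0573) were lost. The insulin call of Psmc2 in IRKO astrocytes, at a log2 change of 0.13 (SE 0.042), was lost without IRKO vehicle replicate 1 (0.0791) or IRKO insulin replicate 3 (0.164).

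The lid, which removes ubiquitin from bound substrates, held the largest rises of the cap in each ligand comparison, and also genes that did not pass. In IRKO astrocytes 7 of 8 lid genes rose with insulin and 6 with IGF-1, and in IRflox astrocytes 6 rose with each. Psmd12 (chromosome 11, 107479484 to 107504362, plus strand), a scaffold subunit of the lid, had 95.4, 94.1, 97.8 and 91.7 CPM in IRKO astrocytes given insulin, 99.4, 94.3, 101.4 and 102.9 CPM in those given IGF-1 and 73.5, 74.6, 75.2 and 71.9 CPM in those given vehicle. In IRflox astrocytes Psmd12 had 93.4, 94.1, 98.4 and 96.7 CPM with insulin, 94.5, 105.4, 93.8 and 104.6 CPM with IGF-1 and 69.2, 72.4, 71.6 and 67.3 CPM with vehicle. No treated library was below 91.7 CPM and no vehicle library above 75.2 CPM. Psmd12 rose by 0.36 (log2) with insulin and 0.43 with IGF-1 in IRKO astrocytes, and by 0.45 and 0.51 in IRflox astrocytes (SE 0.043 each, edgeR adjusted p at most 3.07e-09).

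Psmd14, the deubiquitinase of the lid, rose by 0.32 (log2) with insulin and 0.37 with IGF-1 in IRKO astrocytes, and by 0.40 and 0.42 in IRflox astrocytes. Psmd6 rose by 0.39 (log2) with insulin and 0.37 with IGF-1 in IRKO astrocytes, and by 0.34 and 0.39 in IRflox astrocytes. Psmd11 rose less, by 0.15 (log2) with insulin and 0.16 with IGF-1 in IRKO astrocytes, and by 0.11 and 0.13 in IRflox astrocytes, and in IRflox astrocytes its insulin call was lost without IRflox vehicle replicate 1 (0.117), IRflox vehicle replicate 4 (0.0531), IRflox insulin replicate 2 (0.0603) or IRflox insulin replicate 4 (0.0711) and its IGF-1 call without IRflox vehicle replicate 1 (0.0597) or IRflox IGF-1 replicate 2 (0.0597) (edgeR adjusted p in brackets). Psmd13 passed with insulin in IRKO astrocytes alone, with log2 differences of 0.16 (SE 0.049) and 0.10 (SE 0.049) in IRKO and 0.031 (SE 0.049) and 0.072 (SE 0.049) in IRflox astrocytes. That call was lost without IRKO vehicle replicate 2 (0.071) or IRKO insulin replicate 3 (0.0792), IGF-1 in IRKO astrocytes passed without IRKO vehicle replicate 3 (0.0137), and Psmd13 shares 10.1% of its exon length with the opposite-strand gene Sirt3.

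Psmd8 (chromosome 7, 29174188 to 29180701, minus strand), whose yeast counterpart joins the lid last, had 124.2, 121.6, 123.9 and 119.1 CPM in IRKO astrocytes given insulin, 128.8, 124.2, 121.5 and 124.1 CPM in those given IGF-1 and 121.4, 117.5, 120.05 and 124.1 CPM in those given vehicle. In IRflox astrocytes Psmd8 had 133.1, 130.4, 132.2 and 140.9 CPM with insulin, 126.5, 136.6, 137.4 and 131.4 CPM with IGF-1 and 124.3, 125.4, 147.2 and 133.6 CPM with vehicle. Treated and vehicle libraries overlapped in both genotypes. The log2 differences from vehicle were 0.017 (SE 0.043) and 0.046 (SE 0.043) in IRKO and 0.016 (SE 0.043) and 0.0027 (SE 0.043) in IRflox astrocytes, with edgeR adjusted p of at least 0.392. The 95% intervals, which reached from -0.07 to 0.10 for insulin in IRKO and from -0.07 to 0.10 in IRflox astrocytes, lay below the median change of the 48 genes.

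Of the activators, which cap the core in place of the base and lid, Psme2 and Psme3 rose in each ligand comparison and Psme1 with insulin alone. Psme3 (chromosome 11, 101316213 to 101323537, plus strand), the ring found in the nucleus, had 129.2, 120.03, 130.4 and 126.6 CPM in IRKO astrocytes given insulin, 131.2, 136.6, 133.1 and 132.5 CPM in those given IGF-1 and 90.4, 93.1, 91.2 and 97.6 CPM in those given vehicle. In IRflox astrocytes Psme3 had 130.2, 126.1, 130.1 and 137.9 CPM with insulin, 137.6, 140.5, 132.9 and 139.7 CPM with IGF-1 and 90.1, 96.5, 99.9 and 99.8 CPM with vehicle. The lowest treated library stood at 120.03 CPM and the highest vehicle library at 99.9 CPM, and in IRKO astrocytes all 4 IGF-1 libraries exceeded all 4 insulin libraries. Psme3 rose by 0.44 (log2) with insulin and 0.52 with IGF-1 in IRKO astrocytes, and by 0.44 and 0.51 in IRflox astrocytes (SE 0.04 each, edgeR adjusted p at most 4.05e-12).

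Psme1 and Psme2 form the ring that interferons induce. Psme2 rose by 0.21 (log2) with insulin and 0.28 with IGF-1 in IRKO astrocytes, and by 0.24 and 0.31 in IRflox astrocytes. Psme1 had log2 differences of 0.12 (SE 0.050) and 0.088 (SE 0.050) in IRKO and 0.15 (SE 0.050) and 0.11 (SE 0.050) in IRflox astrocytes, with edgeR adjusted p of 0.0388, 0.139, 0.0128 and 0.0718. Its insulin calls were lost without IRKO vehicle replicate 1 (0.173), IRKO vehicle replicate 2 (0.117), IRKO insulin replicate 1 (0.0753), IRKO insulin replicate 3 (0.159) or IRKO insulin replicate 4 (0.0911) in IRKO astrocytes and without IRflox vehicle replicate 1 (0.168), IRflox vehicle replicate 4 (0.0542), IRflox insulin replicate 1 (0.0629) or IRflox insulin replicate 4 (0.0852) in IRflox astrocytes, and IGF-1 in IRflox astrocytes passed without IRflox vehicle replicate 3 (0.00124). The insulin call in IRKO astrocytes was also lost with DESeq2 (adjusted p = 0.0731), RLE scaling (0.0601) and library size alone (0.0529), and IGF-1 in IRflox astrocytes passed without the filter on low counts (0.0262). Psme4, a large nuclear activator, had log2 differences of -0.065 and -0.036 in IRKO and -0.038 and -0.054 in IRflox astrocytes and did not pass (edgeR adjusted p at least 0.245).

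Psme2b, a near copy of Psme2 with which it may share reads, is uncertain. Its levels were 10.8, 11.8, 10.7 and 10.3 CPM in IRKO astrocytes given insulin, 11.6, 8.04, 11.1 and 13.6 CPM in those given IGF-1 and 14.01, 10.4, 11.5 and 13.1 CPM in those given vehicle. In IRflox astrocytes Psme2b had 11.6, 12.97, 8.72 and 12.6 CPM with insulin, 9.81, 11.2, 10.3 and 9.89 CPM with IGF-1 and 9.06, 12.1, 11.1 and 11.8 CPM with vehicle. Treated and vehicle libraries overlapped, and its log2 differences had standard errors of 0.119 to 0.123, the widest of the activators (edgeR adjusted p at least 0.267).

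Assembly chaperones hold immature subunits and are absent from the finished proteasome. With insulin 4 of 7 rose in IRKO and 5 in IRflox astrocytes, and with IGF-1 likewise 4 and 5. The base chaperone gene Psmd5 (chromosome 2, 34849734 to 34874968, minus strand) had 78.8, 67.4, 76.4 and 75.3 CPM in IRKO astrocytes given insulin, 74.8, 78.8, 74.7 and 75.8 CPM in those given IGF-1 and 54.96, 47.1, 49.4 and 44.3 CPM in those given vehicle. In IRflox astrocytes Psmd5 had 72.5, 72.5, 80.4 and 78.1 CPM with insulin, 78.4, 79.5, 81.2 and 76.7 CPM with IGF-1 and 54.8, 49.6, 48.4 and 54.5 CPM with vehicle. Treated libraries started at 67.4 CPM and vehicle libraries ended at 54.96 CPM. Psmd5 rose by 0.61 (log2) with insulin and 0.64 with IGF-1 in IRKO astrocytes, and by 0.55 and 0.61 in IRflox astrocytes (SE 0.055 each, edgeR adjusted p at most 4.62e-11), among the largest changes of the 48 genes.

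The core chaperone gene Psmg1, which averaged 9.74 CPM, rose by 0.51 (log2) with insulin and 0.59 with IGF-1 in IRKO astrocytes, and by 0.65 and 0.78 in IRflox astrocytes (SE 0.124 to 0.126). Its 4 vehicle libraries held 6.46, 8.93, 6.13 and 7.30 CPM in IRKO and 6.43, 7.29, 7.85 and 6.45 CPM in IRflox astrocytes. Psmg4 rose by 0.58 (log2) with insulin and 0.54 with IGF-1 in IRKO astrocytes, and by 0.55 and 0.54 in IRflox astrocytes. Psmg3 rose by 0.31 (log2) with insulin and 0.44 with IGF-1 in IRKO astrocytes, and by 0.51 and 0.45 in IRflox astrocytes, and its insulin call in IRKO astrocytes (edgeR adjusted p = 0.0195) was lost without IRKO vehicle replicate 2 (0.18) or IRKO insulin replicate 1 (0.0697).

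Psmg2, which pairs with Psmg1, had 16.96, 15.3, 16.2 and 17.97 CPM in IRKO astrocytes given insulin, 13.02, 15.9, 16.2 and 15.8 CPM in those given IGF-1 and 13.96, 13.2, 15.5 and 15.2 CPM in those given vehicle. In IRflox astrocytes Psmg2 had 13.2, 17.05, 14.5 and 16.3 CPM with insulin, 16.6, 18.5, 15.4 and 16.5 CPM with IGF-1 and 16.3, 15.5, 15.3 and 12.4 CPM with vehicle. The groups overlapped, and its log2 differences of 0.20 (SE 0.091) and 0.075 (SE 0.093) in IRKO and 0.039 (SE 0.093) and 0.17 (SE 0.092) in IRflox astrocytes did not pass (edgeR adjusted p at least 0.0674); insulin in IRKO astrocytes passed without IRKO insulin replicate 2 (0.0498). The base chaperone gene Psmd9 differed from vehicle in log2 by -0.052 and -0.018 in IRKO and 0.073 and 0.066 in IRflox astrocytes. Psmd10, another base chaperone, differed by 0.0069 and 0.063 in IRKO astrocytes and rose in IRflox astrocytes by 0.13 (SE 0.053) and 0.15 (SE 0.052), with edgeR adjusted p of 0.0387 and 0.0192. In IRflox astrocytes the insulin call of Psmd10 was lost without any single one of 7 of the 8 libraries compared, with adjusted p of 0.0588 to 0.141, and its IGF-1 call without IRflox vehicle replicate 1 (0.0754), IRflox vehicle replicate 4 (0.0507), IRflox IGF-1 replicate 1 (0.0963) or IRflox IGF-1 replicate 2 (0.0954). The insulin call of Psmd10 was also lost with RLE scaling (0.0609), library size alone (0.0769), no filter on low counts (0.105) and DESeq2 (0.0706).

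The inhibitor gene Psmf1 had 51.03, 53.04, 55.6 and 48.99 CPM in IRKO astrocytes given insulin, 50.8, 54.03, 52.1 and 50.3 CPM in those given IGF-1 and 53.4, 49.2, 47.4 and 51.7 CPM in those given vehicle. In IRflox astrocytes Psmf1 had 53.6, 60.7, 58.7 and 56.4 CPM with insulin, 55.9, 50.8, 58 and 53.1 CPM with IGF-1 and 54.8, 52.6, 57.6 and 53.3 CPM with vehicle. Treated and vehicle libraries overlapped in both genotypes, and the log2 differences from vehicle were 0.048 (SE 0.052) and 0.039 (SE 0.053) in IRKO and 0.07 (SE 0.052) and -0.0055 (SE 0.052) in IRflox astrocytes (edgeR adjusted p at least 0.284).

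Psmc3ip, the recombination factor gene, had 11.4, 10.2, 12.4 and 11.3 CPM in IRKO astrocytes given insulin, 9.98, 11.3, 10.8 and 10.6 CPM in those given IGF-1 and 8.10, 7.12, 7.94 and 7.58 CPM in those given vehicle. In IRflox astrocytes Psmc3ip had 9.99, 11.1, 12 and 10.4 CPM with insulin, 13.3, 12.8, 12 and 11.5 CPM with IGF-1 and 8.03, 10.4, 9.34 and 8.39 CPM with vehicle. Insulin and vehicle overlapped in IRflox astrocytes and the other ligand comparisons did not. It rose by 0.56 (log2) with insulin and 0.47 with IGF-1 in IRKO astrocytes, and by 0.27 and 0.46 in IRflox astrocytes, with an insulin call in IRflox astrocytes (edgeR adjusted p = 0.0214) that was lost without IRflox vehicle replicate 1 (0.11), IRflox vehicle replicate 4 (0.0836), IRflox insulin replicate 2 (0.0556) or IRflox insulin replicate 3 (0.108), and without the filter on low counts (0.0549). Its counts are uncertain, since it shares 21.2% of its exon length with Mlx on the opposite strand. Without Psmc3ip, 40 and 36 of 47 genes rose with insulin and IGF-1 in IRKO astrocytes, and 39 and 37 in IRflox astrocytes.

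Whether the ligands differ was asked by insulin against IGF-1 in each genotype. None of the 48 genes passed in edgeR or DESeq2 in either genotype, where 2.67% of all tested genes passed in IRKO and 2.59% in IRflox astrocytes. At an unadjusted p under 0.05 there were 0 in IRKO and 5 in IRflox astrocytes (Psmb9, Psmb5, Psmb8, Psmc1 and Psmc3ip), or 0% and 10.4% of the 48, where 13.8% and 13.7% of all tested genes lay under it. The lowest adjusted p in IRflox astrocytes was that of Psmb9, at 79.2 to 92.3 CPM with insulin against 70.6 to 79.8 CPM with IGF-1. Its log2 difference was 0.17 (SE 0.056), with a 95% interval of 0.054 to 0.28 and an edgeR adjusted p of 0.11. Without the filter on low counts that difference passed (adjusted p = 0.0463). In IRKO astrocytes Psmb9 differed in log2 by 0.10 (SE 0.056). Psmb8 differed by 0.10 in IRflox and -0.0048 in IRKO astrocytes, and Psmb5 by -0.13 and -0.086, none passing the test. The median 95% interval of a single gene reached 0.096 on either side in both genotypes.

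IRKO and IRflox astrocytes, which differ in both receptor gene and virus, were compared under each treatment. Under vehicle, as under insulin, 1 of 48 genes was lower in IRKO than in IRflox astrocytes and none higher. Of all tested genes 4.1% were lower and 3.76% higher under vehicle, and 5.53% and 4.94% under insulin. That gene was Psmd8 in both. It stood at 117.5 to 124.1 CPM in IRKO against 124.3 to 147.2 CPM in IRflox astrocytes under vehicle, and at 119.1 to 124.2 against 130.4 to 140.9 CPM under insulin, without overlap. The log2 differences under vehicle, insulin and IGF-1 were -0.14, -0.14 and -0.093 (SE 0.043 each), with edgeR adjusted p of 0.0381, 0.0344 and 0.208. The vehicle call was lost without IRflox vehicle replicate 3 (0.273), IRflox vehicle replicate 4 (0.0912), IRKO vehicle replicate 1 (0.0665), IRKO vehicle replicate 2 (0.107) or IRKO vehicle replicate 3 (0.0888), the insulin call without IRflox insulin replicate 1 (0.0532), IRflox insulin replicate 3 (0.0545), IRflox insulin replicate 4 (0.15), IRKO insulin replicate 2 (0.072) or IRKO insulin replicate 4 (0.0834). Without the filter on low counts the vehicle call was lost (0.0596), and with library size alone the insulin call (0.0507).

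Under IGF-1 none of the 48 passed in edgeR or DESeq2, where 6.76% of all tested genes passed, and 2 (4.17%) had an unadjusted p under 0.05, where 19.5% of all tested genes did. Psmf1 in IRKO astrocytes differed in log2 from IRflox astrocytes by -0.12 (SE 0.052) under vehicle and -0.14 (SE 0.052) under insulin without passing (edgeR adjusted p 0.187 and 0.0861), and under insulin it passed without IRflox insulin replicate 1 (0.046) or IRKO insulin replicate 3 (0.0316). Psmc3ip differed by -0.23 (SE 0.099) under vehicle and -0.22 (SE 0.093) under IGF-1 (edgeR adjusted p 0.157 and 0.166). The summed level of the 48 genes in IRKO libraries was 0.9985 (vehicle), 0.9965 (insulin) and 0.9985 (IGF-1) times that in IRflox libraries.

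The response to a ligand in IRKO astrocytes was set against that in IRflox astrocytes by a test of the difference of the responses. None of the 48 genes, and none of the 15599 tested (0%), passed for insulin or for IGF-1 in edgeR, and none of the 48 in DESeq2. At an unadjusted p under 0.05 there was 1 of 48 for insulin, Psmc3ip, with 0.29 (SE 0.136) for IRKO minus IRflox and an edgeR adjusted p of 0.893, and 0 for IGF-1, where 5.37% and 5.27% of all tested genes lay under it. The log2 response of Psmd12 to insulin differed by -0.088 (SE 0.061), that of Psme3 by 0.0033 (SE 0.057) and that of Psmb5 by 0.012 (SE 0.083). The median 95% interval reached 0.137 on either side, against median log2 responses of 0.23 to 0.28.

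Set side by side, the responses in the 2 genotypes, which share no library, ordered the 48 genes alike. For insulin Pearson's r across genes was 0.844 and Spearman's rho 0.887, and for IGF-1 0.948 and 0.93, as descriptions over genes that share libraries within each genotype. With insulin 39 genes rose in both genotypes, which is 95.1% of those that rose in IRKO and 97.5% of those that rose in IRflox astrocytes. With IGF-1 it was 37, or 100% and 97.4%. Neither the correlations nor these overlaps were computed over all tested genes, so the agreement cannot be called particular to the 48.

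**Figure D4:**
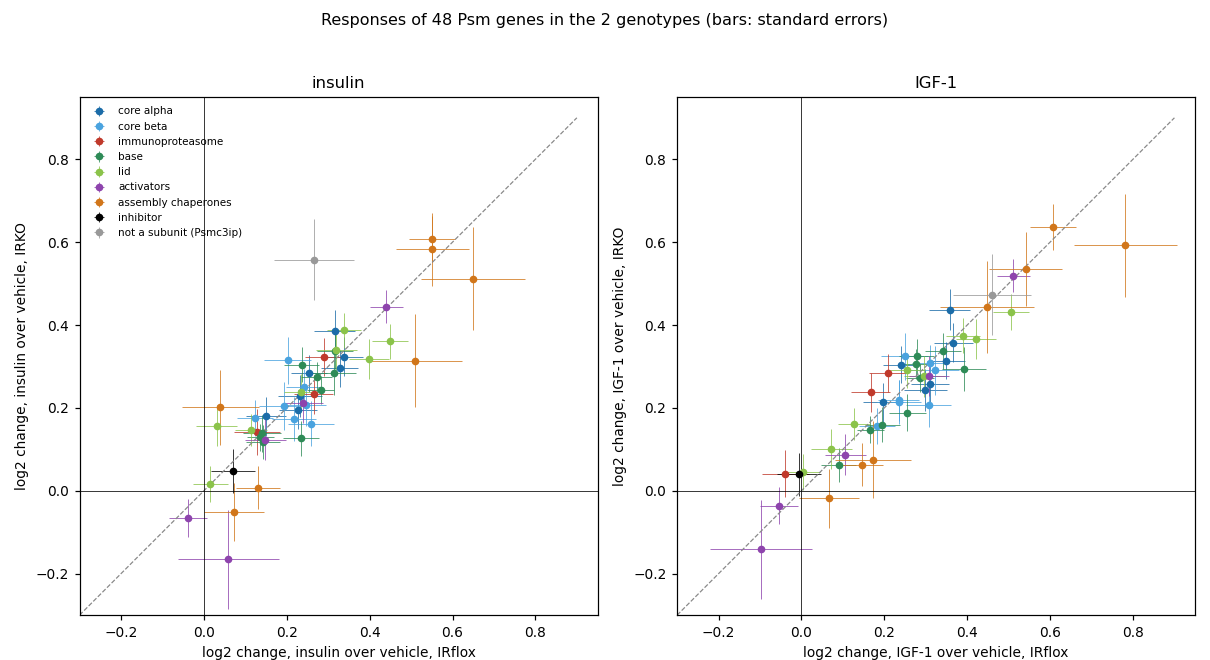
Log2 change over vehicle in IRKO astrocytes (vertical) against that in IRflox astrocytes (horizontal) for each of the 48 genes, coloured by role, with standard errors (bars), for insulin (left) and IGF-1 (right). The dashed line marks equal responses, along which most genes lie, from Psme4 and Psme2b near or below 0 to Psmd5 and Psmg1 at the top.

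Genes that act with the proteasome were taken from 4 lists. Their counts stand beside the shares of all tested genes given above, of which in IRKO astrocytes 24.7% rose and 21.7% fell with insulin and 26.9% rose and 25.1% fell with IGF-1, and in IRflox astrocytes 24.3%, 21.4%, 26.4% and 24.4%. Of 17 tested associated factors (21 listed), 10 rose with each ligand in IRKO astrocytes (2 fell with insulin and 3 with IGF-1), and in IRflox astrocytes 10 rose with insulin and 11 with IGF-1 (1 fell with each), with median log2 changes of 0.13, 0.16, 0.15 and 0.20. Pomp, the maturation factor of the core, rose by 0.27 (log2) with insulin and 0.32 with IGF-1 in IRKO astrocytes, and by 0.20 and 0.22 in IRflox astrocytes. Adrm1, a ubiquitin receptor of the base, rose by 0.29 (log2) with insulin and 0.37 with IGF-1 in IRKO astrocytes, and by 0.33 and 0.41 in IRflox astrocytes. Usp14, a deubiquitinase bound to the base, rose by 0.24 (log2) with insulin and 0.34 with IGF-1 in IRKO astrocytes, and by 0.37 and 0.41 in IRflox astrocytes, and the shuttle factor gene Rad23b and the ubiquitin ligase gene Ube3c rose in all 4 as well. Sem1, a small lid subunit, passed with IGF-1 alone (log2 0.16 in IRKO and 0.20 in IRflox astrocytes), and Uchl5, another deubiquitinase, in none.

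The transcription factor gene Nfe2l1 fell. Its levels were 733.8, 756.3, 683.6 and 699.5 CPM in IRKO astrocytes given insulin, 706.98, 666.5, 702.1 and 667.9 CPM in those given IGF-1 and 902.6, 950.9, 977.99 and 998.4 CPM in those given vehicle. In IRflox astrocytes Nfe2l1 had 765.1, 753.7, 691.7 and 714.5 CPM with insulin, 647.3, 706.8, 624.8 and 753.1 CPM with IGF-1 and 944.3, 938.4, 969.3 and 963.8 CPM with vehicle. Every treated library lay below every vehicle library of its genotype, and the log2 changes were -0.41 (SE 0.044) and -0.48 (SE 0.044) in IRKO and -0.38 (SE 0.044) and -0.48 (SE 0.044) in IRflox astrocytes (edgeR adjusted p at most 1.66e-09). NRF1 is known to be controlled by its own degradation and processing, which transcript levels do not show.

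Of the 14 genes of NRF1 control and its p97 extraction machinery, 4 rose and 5 fell with insulin and 5 rose and 3 fell with IGF-1 in IRKO astrocytes, and 5 rose and 4 fell, and 4 rose and 3 fell, in IRflox astrocytes, with medians of -0.021, 0.017, -0.051 and -0.005. Each count lay within 2 genes of what those shares give for 14. The related factor gene Nfe2l2 changed in log2 by -0.086 and -0.15 in IRKO and -0.088 and -0.16 in IRflox astrocytes, and Mafk, a small partner of both factors, by -0.83, -0.95, -0.81 and -0.68 in the same order, all passing. Syvn1, the ligase of endoplasmic reticulum degradation, rose in all 4, by log2 changes of 0.32, 0.27, 0.21 and 0.18. Ddi2, the protease that cleaves NRF1, fell in IRKO astrocytes (log2 -0.13 and -0.15) and did not pass in IRflox astrocytes (-0.036 and 0.026), and the difference between genotypes did not pass (edgeR adjusted p 0.929 and 0.763).

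The polyubiquitin gene Ubb fell in all 4 comparisons, with log2 changes of -0.22 and -0.23 in IRKO and -0.25 and -0.30 in IRflox astrocytes. Rps27a, which encodes ubiquitin fused to a ribosomal protein, rose by log2 changes of 0.41 and 0.59 in IRKO and 0.41 and 0.57 in IRflox astrocytes, and Uba1, the main activating enzyme, by 0.15, 0.21, 0.19 and 0.21. Of the 7 ubiquitin and activating enzyme genes 4 rose and 3 fell with insulin and 4 rose and 2 fell with IGF-1 in IRKO astrocytes, and 4 and 2, and 3 and 2, in IRflox astrocytes, with medians of 0.15, 0.14, 0.12 and -0.004.

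Of 10 antigen processing and interferon genes, 2 rose and 3 fell with insulin and 1 rose and 3 fell with IGF-1 in IRKO astrocytes, and 1 rose and 3 fell, and 0 rose and 6 fell, in IRflox astrocytes, with medians of 0, -0.046, -0.032 and -0.10. Apart from the 6 falls with IGF-1 in IRflox astrocytes, the falls lay within 1 gene of what the background shares give for 10. Irf1, a transcription factor known to induce immunoproteasome genes, fell, with log2 changes of -0.18 and -0.30 in IRKO and -0.33 and -0.47 in IRflox astrocytes. The class I gene H2-D1 fell in all 4 too, with -0.15, -0.19, -0.17 and -0.21.

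Markers of other cells moved with the ligands and the genotype. The 12 microglia markers summed to 1304 to 1325 CPM with insulin, 1266 to 1365 with IGF-1 and 1512 to 1538 with vehicle in IRKO libraries, and to 1075 to 1146, 1110 to 1171 and 1236 to 1317 CPM in IRflox libraries. With insulin 10 of 12 fell in IRKO and 9 in IRflox astrocytes, with IGF-1 9 and 7, and in IRKO against IRflox 10 were higher with vehicle, 9 with insulin and 7 with IGF-1. The 8 oligodendrocyte lineage markers summed to 370.5 to 376.6, 401.1 to 433.7 and 262.9 to 280.4 CPM in IRKO libraries given insulin, IGF-1 and vehicle, and to 319 to 354.7, 362 to 391.9 and 242.3 to 264.9 CPM in IRflox libraries. Of the 6 that were tested, 2 rose and 1 fell with insulin and 3 rose and 2 fell with IGF-1 in IRKO astrocytes, and 3 rose and 1 fell, and 2 rose and 2 fell, in IRflox astrocytes, with median log2 changes of 0.011, 0.17, 0.065 and -0.029. The 7 neuron markers summed to 68.1 to 73.5 CPM with insulin, 69.1 to 72.4 with IGF-1 and 66.2 to 78.5 with vehicle in IRKO libraries, and to 86.5 to 95.4, 80.1 to 87.5 and 80.6 to 84.3 CPM in IRflox libraries. These sums were lower in IRKO without overlap under each treatment. Of the 5 tested, 1 was lower in IRKO under vehicle, 2 were lower and 1 higher under insulin, and 1 was lower under IGF-1. Of all tested genes 3.76% were higher and 4.1% lower in IRKO under vehicle, and 4.94% and 5.53% under insulin. Under IGF-1 6.76% passed in either direction. Marker sums of fibroblasts and mural cells ran from 282.3 to 360.9 CPM and those of endothelium from 1.68 to 5.67 CPM over all libraries. No microglia or oligodendrocyte lineage marker was at 0 in all libraries, and the part of these cells in the proteasome gene results was not tested.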

How the data were processed

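The authors deposited unnormalized counts per gene in a file for each library. Of the tools behind them, the submitters' processing notes list STAR 2.7.7a, edgeR, DESeq2 and R 4.0.4, with the build mm10, and give no roles; the sources used here name neither the program that counted reads nor its annotation. Lines naming no gene stayed out of all totals. Reads not counted as unique overlaps with a gene were 14.5 to 23.2% of a library's total reads. In each library the gene counts exceeded the reads counted as overlapping genes, so some reads may have been counted for more than 1 gene. Coordinates and lengths are from GENCODE M21 (GRCm38, 1-based), which held all 48 genes; levels per kilobase use the exons of protein-coding transcripts in its basic set, or all annotated exons where said. Promoter sequences are from RefSeq (GRCm38.p6).

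Testing used edgeR 4.0.16 under R 4.3.3, after its expression filter (at least 10 counts in enough libraries and 15 in total) and TMM scaling (factors 0.982 to 1.018). The quasi-likelihood model had the 6 groups as terms and took in every library (biological coefficient of variation 4.92%). Adjusted p-values are Benjamini-Hochberg over the 15599 tested genes, per comparison, called under 0.05. CPM and log2 values were computed here from the counts. The CPM values use the library total times its TMM factor, except in the level rule and for genes that overlap a member, which use the library total alone. The members, lists and tests were chosen with earlier results of these data known. Genes given in every library are, per role, the members with the lowest and highest p for insulin against vehicle in IRflox astrocytes, plus the catalytic pairs; other members are named with fewer values. Genes outside the 48 are Insr, Nfe2l1, Nfe2l2, Ddi2, Pomp, Sem1, Adrm1, Usp14, Uchl5 and up to 4 per list with the lowest p. Some genes that this rule names are not reported here. Replicates differed beyond sampling noise (chi-square per gene 2.17 to 6.86), so each counted as 1. Alternatives were RLE scaling, library size alone, no filter, DESeq2 1.42.0, a replicate block and leaving out each library.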

Additional observations from a re-analysis of the deposited data

Results flagged for a closer look

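In 9 of 162 groups of 4 libraries looked at, 1 library stood far from the other 3 by Dixon's test, which flags about 1 in 20 groups by chance. Psma7 had 106.1 CPM in IRKO vehicle replicate 4, against 96.9 to 98.0 CPM in the other 3. Psmb6 had 143.7 CPM in IRflox IGF-1 replicate 2, against 124.0 to 127.3 CPM. Psmg2 had 13.02 CPM in IRKO IGF-1 replicate 1, against 15.8 to 16.2 CPM. Psmb8 had 282.2 CPM in IRKO insulin replicate 4, against 296.6 to 298.9 CPM. IRflox vehicle replicate 3 stood high for Psmb5 (97.9 CPM, against 83.4 to 84.1 CPM), for Psmb7 (126.6 CPM, against 114.8 to 116.7 CPM) and for the summed core beta genes (780.8 CPM, against 693.9 to 698.1 CPM). IRKO vehicle replicate 2 stood low for the summed core beta genes (665.8 CPM, against 743 to 746.9 CPM), and IRKO IGF-1 replicate 2 for the summed immunoproteasome genes (601.4 CPM, against 653 to 658.7 CPM). No cause of these values was tested.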

How the results depend on the processing

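No call changed direction under any alternative run. Under RLE scaling, library size alone, no filter on low counts and DESeq2, 39 to 40 genes rose with insulin in IRKO and 39 in IRflox astrocytes, and 37 and 38 to 39 with IGF-1, beside 41, 40, 37 and 38. Leaving out 1 library gave 35 to 41 and 33 to 40 with insulin and 37 to 38 and 36 to 40 with IGF-1. Those that rose under every alternative numbered 32 and 32 with insulin and 37 and 36 with IGF-1.

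For IRKO against IRflox astrocytes, Psmd8 under insulin was lost with library size alone (0 genes, from 1), and under vehicle without the filter (0, from 1); leaving out 1 library gave 0 to 1 genes under vehicle, 0 to 2 under insulin and 0 under IGF-1. Without the filter 1 gene, Psmb9, passed for insulin against IGF-1 in IRflox astrocytes. Insulin against IGF-1 and the differences between genotypes in response otherwise gave 0 in each alternative. The cause was not tested.

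Same-numbered libraries did not deviate together (correlations -0.115 to 0.05), so the replicate number pairs nothing known; a fit with it as a replicate block gave 41, 37, 40 and 38 genes for the ligands (IRKO insulin and IGF-1, IRflox insulin and IGF-1) and 1, 1 and 0 for the genotypes under vehicle, insulin and IGF-1, and 0 for the remaining comparisons. Libraries held 15429688 to 19010986 counts, and the median 95% interval of a single gene reached about 0.1 on either side on the log2 scale.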
